A study of Mus musculus with 4 samples.

Results

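The miR-30 family was examined in small RNA libraries of extracellular vesicles, the membrane particles that cells release with RNA inside. The family was taken as every row of the deposited count table for the 5p arms of miR-30a, miR-30b, miR-30c, miR-30d and miR-30e, together with the row for the other arm of each hairpin, on the same strand and starting within 60 bases. This gave 12 of 2110 rows, which stand for 11 mature miRNAs from 6 hairpins, since miR-30c-5p is encoded by both Mir30c-1 and Mir30c-2. The vesicles came from C2C12, an established mouse myoblast line of WT genotype, grown in DMEM with 10% FBS and pen/strep, and were isolated by differential centrifugation. The damaged group (2 libraries) was treated with hydrogen peroxide, and the WT group (2 libraries) carries WT as its treatment label. The sources used here state neither the dose nor the duration of the peroxide, nor how many cultures the libraries came from or whether the cells had differentiated. A p-value therefore reflects only how far these libraries differ from each other, which may be technical. In the table's own identifiers the 5p arms are MIMAT0000128 (miR-30a), MIMAT0000130 (miR-30b), MIMAT0000514 (miR-30c), MIMAT0000515 (miR-30d) and MIMAT0000248 (miR-30e).

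A miRNA is cut from a hairpin whose 5p and 3p arms pair with each other. One arm is usually loaded into an Argonaute protein, where bases 2 to 8, the seed, choose the messenger RNAs to be repressed, and the other arm is mostly degraded. The 5p arms of the family share a seed and are widely expressed, and in muscle cells they have been linked to differentiation and to the restraint of genes of fibrosis such as Ctgf. The design sets the miRNAs released in vesicles by peroxide-treated muscle cells against those of WT cells.

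The mature sequences are shown because they tell which family members can share target sites and which can be mistaken for each other in read mapping. RefSeq (GRCm38.p6, the build called mm10) gave a sequence for 8 of the 12 rows, printed 5′ to 3′ with the seed in capitals.
miR-30a-5p: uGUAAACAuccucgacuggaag
miR-30e-5p: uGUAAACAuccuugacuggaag
miR-30c-5p: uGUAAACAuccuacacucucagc
miR-30a-3p: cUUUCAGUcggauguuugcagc
miR-30e-3p: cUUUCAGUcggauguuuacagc
miR-30c-1-3p: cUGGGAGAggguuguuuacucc
miR-30c-2-3p: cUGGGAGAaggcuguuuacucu
The 5p arms of miR-30a, miR-30c and miR-30e thus shared 1 seed. The 3p arms fell into 2 seeds, 1 for miR-30a-3p and miR-30e-3p and 1 for both miR-30c 3p arms. Counted from the 5′ end, miR-30a-5p and miR-30e-5p differed by C13U alone, and miR-30a-3p and miR-30e-3p by G18A alone. Over the first 22 bases miR-30c-5p differed from miR-30a-5p at 5 positions, all of them at position 13 or later. miR-30c-1-3p and miR-30c-2-3p differed by G9A, U12C and C22U.

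The 6 hairpins lie in 3 pairs, each within 1 stretch of a chromosome (mm10, GENCODE vM21). Mir30a (chromosome 1, 23272269 to 23272339, plus strand) is 19361 bases from Mir30c-2 (23291701 to 23291784), which overlaps an exon of the long non-coding RNA gene Gm27028, while Mir30a overlaps no other annotated gene. Mir30b (chromosome 15, 68337415 to 68337510, minus strand) lies in an exon of the transcript Gm26621, and Mir30d (68341208 to 68341289), 3697 bases away, in an exon of Gm20732 and of Gm37296. Mir30c-1 (chromosome 4, 120769534 to 120769622, minus strand) and Mir30e (120772606 to 120772697), 2983 bases apart, both lie in an intron of Nfyc, a gene for a subunit of the transcription factor NF-Y. The Mir30a and Mir30e hairpins are shown with both mature arms in capitals. Mir30a had more reads on its 3p arm than on its 5p arm, and no reads were counted for the 3p arm of Mir30e.
Mir30a: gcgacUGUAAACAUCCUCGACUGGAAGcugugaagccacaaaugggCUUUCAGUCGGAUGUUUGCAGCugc
Mir30e: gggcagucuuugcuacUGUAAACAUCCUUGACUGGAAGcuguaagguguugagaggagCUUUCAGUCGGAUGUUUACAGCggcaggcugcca

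Library totals were 4577668 and 7638663 counts in WT and 6901394 and 7350345 in damaged, so 3 counts, taken as the limit a count of 0 allows, equalled 0.394 to 0.664 CPM. CPM is the read count scaled to library size with TMM factors, and intervals and limits cover counting error only. Skeletal muscle miRNAs took 29.6% and 33.6% of counts in WT and 35.7% and 38.3% in damaged, and 16 of their 18 rows had counts. Markers of blood and liver summed to 1505 to 1714 CPM in WT and 1406 to 1522 in damaged, with 3 of 9 rows at 0 (miR-142a-3p and both arms of miR-122), all of which share bases with an entry on the opposite strand. Epithelial markers summed to at most 13.3 CPM in any library, with 8 of 14 rows at 0, and the 4 endothelial rows of miR-126a and miR-126b were at 0, though they share bases with each other on opposite strands, which this counting does not resolve. The sums of skeletal muscle miRNAs, of neural markers, and of rows whose reads may be pieces of other RNA, were higher in both damaged libraries than in both WT libraries. The median log2 fold change of tested rows was 1.12 for skeletal muscle, 0.64 for neural markers and 1.74 for the possible RNA pieces. The neural sum was 847 and 994 CPM in WT against 1448 and 1800 in damaged, with 14 of 28 rows at 0, 12 of them sharing bases with an opposite entry. Its most abundant rows were both copies of miR-128-3p, then miR-132-5p, and the rows at 0 included those of miR-9. The possible RNA pieces took 0.176% and 0.275% of counts in WT against 0.631% and 0.680% in damaged, with 3 of 12 rows at 0. Their part in the values below was not tested.

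The 12 rows together held 12490 and 24042 counts in WT and 27445 and 28715 in damaged. This was 0.273% (exact Clopper-Pearson 95% interval 0.268 to 0.278) and 0.315% (0.311 to 0.319) of all counts in WT, and 0.398% (0.393 to 0.402) and 0.391% (0.386 to 0.395) in damaged. The family thus took a larger share in both damaged libraries than in either WT library, and the groups were further apart than the libraries within them. The difference lay on the 5p side: the 5p rows took 0.222% and 0.254% in WT against 0.350% and 0.340% in damaged, whereas the 3p rows took 0.0508% and 0.0605% against 0.0474% and 0.0505%. Most of the 5p counts were of miR-30d-5p alone, with 6529 and 12584 in WT and 17188 and 16208 in damaged, so the sum mainly follows this row.

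miR-30d-5p was the main carrier of the family's reads. Its level was 1446 and 1653 CPM in WT and 2507 and 2156 CPM in damaged, which ranked it 44th of all 2110 rows by mean CPM. miR-30b-5p, encoded 3697 bases from it, stood at 361 and 447 CPM in WT and 474 and 541 CPM in damaged. The ratio of miR-30d-5p to miR-30b-5p was 4.01 and 3.70 in WT and 5.29 and 3.98 in damaged, so the 2 miRNAs of this pair kept a gap of about the same size in 3 of the libraries and a wider one in damaged replicate 1.

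Below these came miR-30c-5p and miR-30a-5p at similar levels. The miR-30c-5p rows of Mir30c-1 and Mir30c-2 are identical in sequence, so a read does not tell its locus, and the Mir30c-1 row held 50.3% to 52.1% of their sum in each library. The summed miR-30c-5p level was 212 and 266 CPM in WT, against 287 and 356 in the damaged libraries. For miR-30a-5p it was 215 and 175 CPM in WT, against 234 and 236. In WT these miRNAs overlapped in level, while in damaged both libraries had more miR-30c-5p than miR-30a-5p.

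miR-30e-5p was the rarest 5p arm, with 77 and 74 counts in WT and 173 and 268 in damaged, or 17.1 and 9.72 CPM against 25.2 and 35.6 CPM. It was present at 0.0793 and 0.0556 times the counts of miR-30a-5p in WT and at 0.108 and 0.151 times in damaged, although the sequences differ by C13U alone. Whether reads of 1 were counted for the other was not tested. Mir30e and Mir30c-1 both lie in an intron of Nfyc, but a read of miR-30c-5p may also come from Mir30c-2 on chromosome 1. Summed over both rows, miR-30c-5p exceeded miR-30e-5p 12.4-fold and 27.4-fold in WT and 11.4-fold and 10.00-fold in damaged. This ratio therefore does not compare the Nfyc hairpins with each other. The order of levels in both groups was miR-30d-5p, miR-30b-5p, then miR-30c-5p and miR-30a-5p, then miR-30e-5p, and only the miR-30c-5p and miR-30a-5p neighbours overlapped, in WT.

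**Figure D1:**
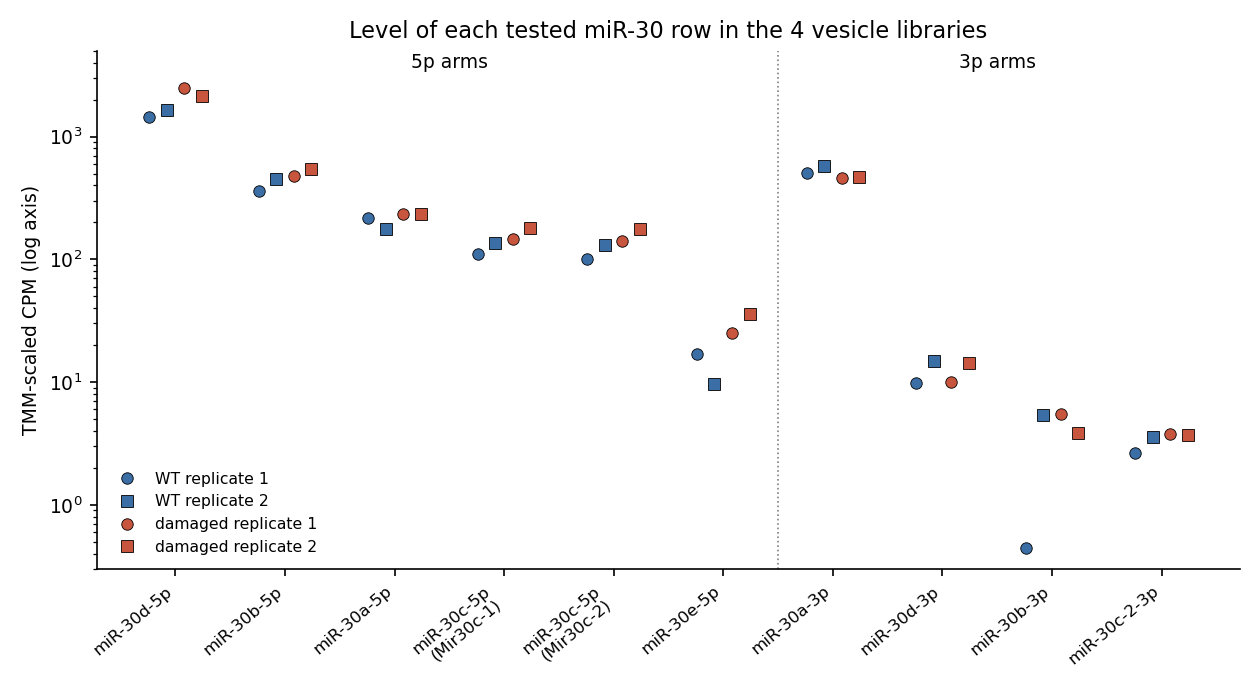
Level of each of the 10 tested miR-30 rows in the 4 libraries, as TMM-scaled CPM on a log axis; blue is WT, red is damaged, circles are replicate 1 and squares replicate 2. For all 6 rows of 5p arms both damaged libraries lay above both WT libraries, and miR-30a-3p was the most abundant 3p row by a wide margin, at 457 to 581 CPM.

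Within the 5p counts the make-up of the family was much the same in both groups. miR-30d-5p took 64.2% and 64.8% of them in WT and 71.1% and 64.8% in damaged, so damaged replicate 1 stood apart and damaged replicate 2 lay at the level of WT. miR-30b-5p took 16.0% and 17.5% in WT and 13.4% and 16.3% in damaged, miR-30c-5p 9.42% and 10.4% against 8.13% and 10.7%, and miR-30a-5p 9.55% and 6.86% against 6.63% and 7.10%. These shares overlapped between the groups for miR-30b-5p, miR-30c-5p and miR-30a-5p. miR-30e-5p took 0.758% (exact 95% interval 0.598 to 0.946) and 0.381% (0.299 to 0.478) in WT and 0.716% (0.613 to 0.830) and 1.07% (0.948 to 1.21) in damaged, which also overlapped. These shares do not depend on how libraries are scaled.

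**Figure D2:**
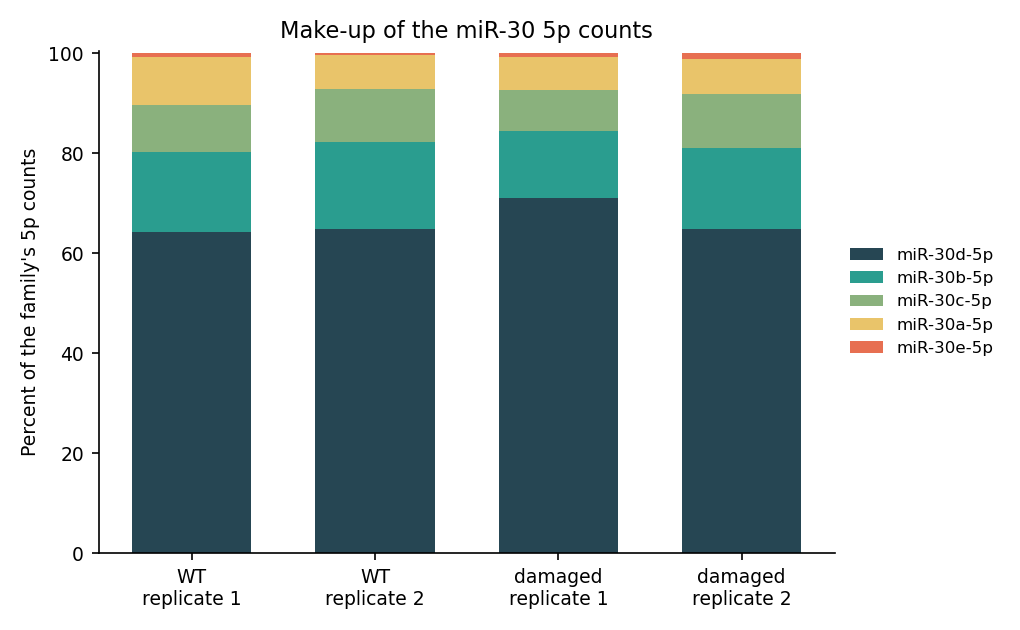
Percent of the family's 5p counts that fell on each miRNA, per library, with the rows of miR-30c-5p summed. miR-30d-5p made up 64.2% to 71.1% in every library, and miR-30e-5p at most 1.07%.

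Each 5p row was higher in both damaged libraries than in both WT libraries, but no row of the family passed the test. edgeR's quasi-likelihood test with Benjamini-Hochberg adjustment over 536 tested rows called 51 rows, 9.51% of those tested, and 0 of the 10 miR-30 rows it could test, with 2 of them at an unadjusted p under 0.05, as were 30.8% of all rows. Of all tested rows 4.1% were called higher and 5.41% lower in damaged. DESeq2 called 1 of the 10 and limma-voom 1, where they called 21.2% and 14.7% of all rows; a replicate block, described with the other settings, called 23.7%. Both damaged libraries lay above both WT libraries for 6 of 6 5p rows, which stand for 5 sequences, against 29.1% of all tested rows. The median log2 fold change was 0.43 over these 6 rows, 0.13 over the 4 tested 3p rows and 0.02 over all 536. Leaving out 1 library moved the median of these 6 rows to 0.26 (without damaged replicate 2), 0.28 (without WT replicate 1), 0.48 (without damaged replicate 1) or 0.63 (without WT replicate 2). All 6 rows stayed above 0 without each library in turn and in each of the 10 other settings on 4 libraries that were read for every row, where the copies of miR-30c-5p count as 1 row when summed. The GC correction was read for miR-30a-5p, miR-30c-5p and miR-30e-5p, which also stayed above 0. The rows share libraries and scaling and are not independent of each other.

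miR-30d-5p came closest to the threshold. The WT libraries averaged 1549 ± 146 CPM and the damaged ones 2332 ± 249 (SD, n = 2). edgeR put the log2 difference at 0.59 with an SE of 0.14 (adjusted p = 0.0544), and its p ranked 72 of 536. Among the settings with no replicate block, it passed with DESeq2 (adjusted p = 0.00547), with limma-voom (0.0379), with rows of under 10 CPM in all but 1 library left out (0.0323, where 28.6% of rows were called) and with no filter (0.00300, where 13.1% were called). It did not pass with any other scaling. With 1 library left out its log2 difference was 0.42 (without WT replicate 1) to 0.72 (without WT replicate 2).

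miR-30e-5p had the largest fold and the fewest reads among the 5p arms. The WT libraries averaged 13.4 ± 5.19 CPM and the damaged ones 30.4 ± 7.36 (SD, n = 2). This was 2.29-fold by edgeR, or 1.20 on the log2 scale with an SE of 0.39 (adjusted p = 0.104). Among the settings with no replicate block, it passed with no filter (adjusted p = 0.0120) and not with DESeq2 (0.0870) or limma-voom (0.0719). Without WT replicate 2, the library with the lowest level, the log2 fold change was 0.86, and without WT replicate 1 it was 1.57.

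The other 5p arms had smaller differences. miR-30c-5p, with both rows summed, averaged 239 ± 38.3 CPM in the WT libraries against 321 ± 49.2 in the damaged ones (SD, n = 2), and edgeR gave a log2 difference of 0.44 with an SE of 0.21 (adjusted p = 0.236). For miR-30b-5p the means were 404 ± 60.9 and 507 ± 47.8 CPM (SD, n = 2), with 0.33 and an SE of 0.17 (edgeR adjusted p = 0.256). For miR-30a-5p they were 195 ± 28.4 and 235 ± 1.68 CPM (SD, n = 2), with 0.27 and an SE of 0.17 (edgeR adjusted p = 0.348). With 1 library left out the log2 difference of miR-30b-5p was 0.10 (without WT replicate 1) to 0.52 (without WT replicate 2), and that of the Mir30c-1 row of miR-30c-5p 0.18 to 0.59 without the same libraries. The Mir30c-2 row ranged likewise from 0.21 to 0.67, and miR-30a-5p from 0.15 (without WT replicate 2) to 0.35 (without WT replicate 1). With errors of this size, neither a change nor its absence is shown for these miRNAs.

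**Figure D3:**
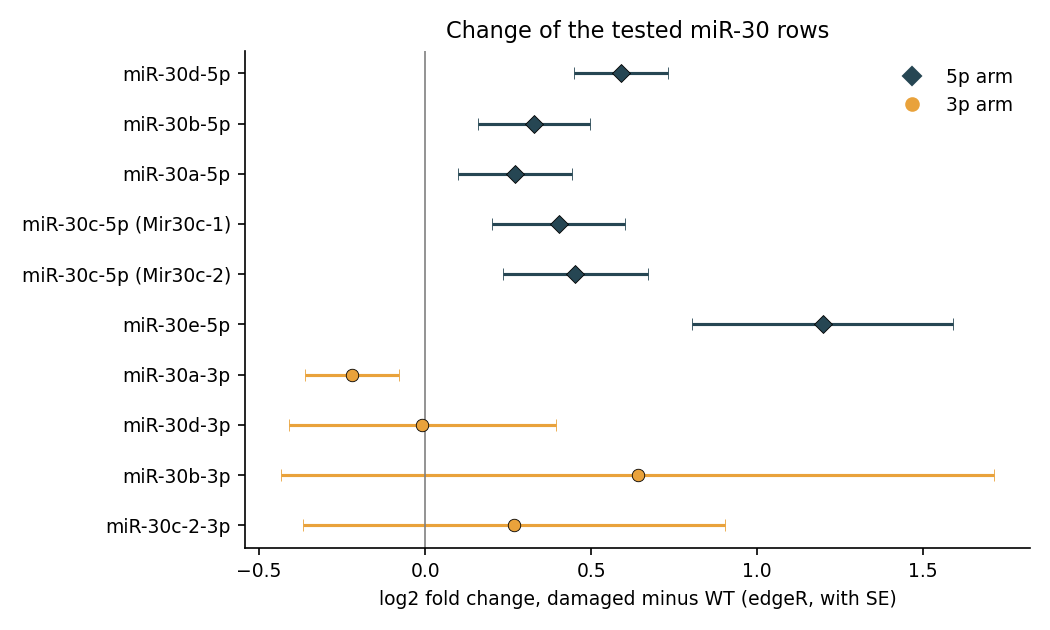
log2 fold change of damaged against WT for the 10 tested miR-30 rows (edgeR, bars are the SE); diamonds are 5p arms and circles 3p arms. The 6 rows of 5p arms lie between 0.27 and 1.20, and miR-30a-3p lies at -0.22.

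The 3p arms of miR-30b, miR-30c and miR-30d were rare, while that of miR-30a outnumbered its own 5p arm. The row of miR-30e-3p, at 0 counts, is taken up below. miR-30a-3p had 2262 and 4422 counts in WT and 3135 and 3550 in damaged, against 971 and 1332, and 1602 and 1775, for miR-30a-5p. The 3p arm therefore held 70.0% (exact 95% interval 68.4 to 71.5) and 76.9% (75.7 to 77.9) of miR-30a counts in WT, and 66.2% (64.8 to 67.5) and 66.7% (65.4 to 67.9) in damaged. Of the 151 hairpins with both arms tested, 64 had more than 50% of their counts on the 3p arm, so the balance of Mir30a is common in these libraries, although it is the only such hairpin among the 4 of this family that could be tested.

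miR-30a-3p was lower in damaged where miR-30a-5p was higher. In CPM it stood at 501 and 581 in WT and 457 and 472 in damaged, a log2 difference of -0.22 with an SE of 0.14 (edgeR adjusted p = 0.359; both damaged libraries lay below both WT libraries in 30.8% of all rows), and this direction held under each of the 11 other settings on 4 libraries and without each library. The size rested on the WT libraries, at -0.08 without WT replicate 2 and -0.40 without WT replicate 1. The 3p share of miR-30a averaged 73.4% ± 4.87 in the WT libraries and 66.4% ± 0.343 in the damaged ones (SD, n = 2), without overlap. For 23.8% of the 151 hairpins both damaged libraries lay below both WT libraries in the same way. An exact two-sided permutation test of 2 libraries against 2 cannot go below p = 0.33, the value it gave here (0.44 after adjustment over the 4 miRNAs compared). A test of arm use across all 151 hairpins, edgeR's diffSpliceDGE with the arms in place of exons, called 5.96% of hairpins and not Mir30a (log2 ratio of 3p to 5p -0.49, damaged minus WT, edgeR adjusted p = 0.374). The ratio was -0.24 without WT replicate 2 and -0.75 without WT replicate 1. 92 of the 151 hairpins had a larger change of the ratio in either direction, and in 58 the arms had log2 fold changes of opposite sign. In the same test of arm use Mir30d changed more than Mir30a, by -0.60 (edgeR adjusted p = 0.516). Mir30c-2 changed by -0.18 (edgeR adjusted p = 0.952) and Mir30b by 0.31 (0.924).

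The 3p arms of miR-30d, miR-30c and miR-30b gave 0.123% to 2.27% of the counts of their miRNA. miR-30d-3p had 44 and 112 counts in WT and 69 and 108 in damaged, a 3p share of 0.669% (0.487 to 0.898) and 0.882% (0.727 to 1.06) against 0.40% (0.311 to 0.506) and 0.662% (0.543 to 0.799). Its level overlapped between the groups at 9.74 and 14.7 CPM in WT and 10.1 and 14.4 CPM in damaged, with a log2 difference of -0.01 and an SE of 0.40 (edgeR adjusted p = 0.991), whose sign changed with the scaling. The sum of both miR-30c 3p arms was 1.85% (1.10 to 2.90) and 2.27% (1.67 to 3.0) of miR-30c counts in WT and 1.40% (0.936 to 2.02) and 1.03% (0.688 to 1.49) in damaged. miR-30b-3p had 2 and 41 counts in WT and 38 and 29 in damaged, and WT replicate 1 was low (0.123%, 0.0148 to 0.442) beside WT replicate 2 (1.19%, 0.855 to 1.61), so the WT libraries lay further apart than the groups. The exact permutation test gave p = 0.33, the lowest value it can reach, for the shares of miR-30c and miR-30d, and p = 1 for miR-30b. For miR-30c and miR-30d both damaged libraries lay below both WT libraries, as in 23.8% of the 151 hairpins with both arms tested.

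**Figure D4:**
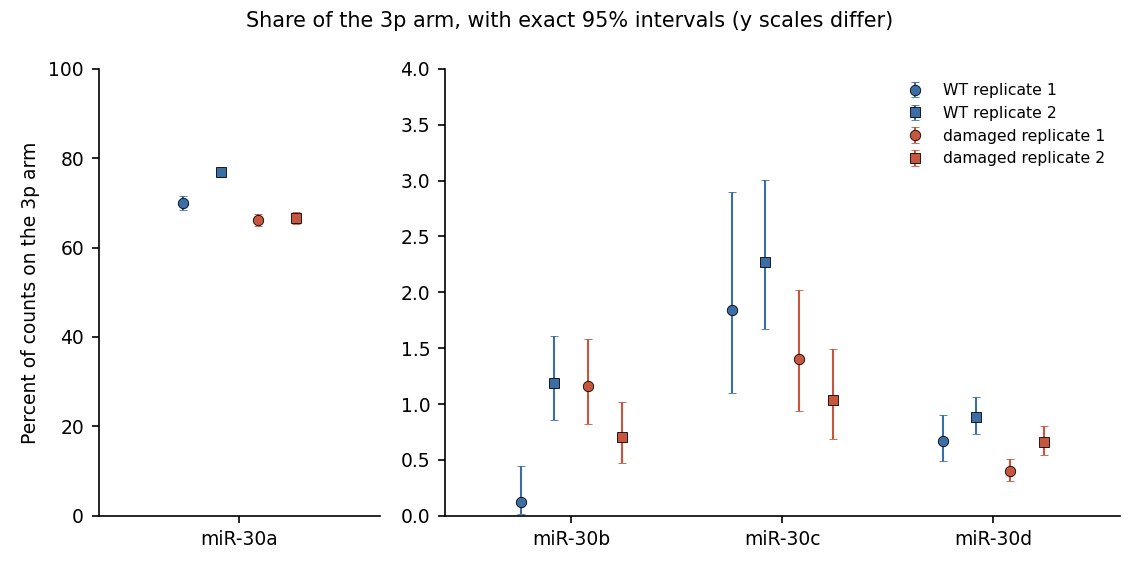
Percent of the counts of each miRNA that lay on the 3p arm, per library, with exact 95% intervals; miR-30a has its own y scale, and both hairpins of miR-30c are summed. miR-30a lies between 66.2% and 76.9%, with both damaged libraries below both WT libraries, and the others between 0.123% and 2.27%.

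The miR-30c 3p arms differ from each other at 3 positions and so, unlike the 5p rows, can tell the Mir30c-1 and Mir30c-2 loci apart. miR-30c-2-3p had 12 and 27 counts in WT and 26 and 28 in damaged (log2 fold change 0.27 ± 0.64 SE, adjusted p = 0.845 by edgeR). miR-30c-1-3p had 6 and 20 counts in WT and 2 and 0 in damaged, and did not pass the filter on low counts. Mir30c-2 thus had more of the miR-30c 3p reads than Mir30c-1 in every library, by 12 to 6 and 27 to 20 counts in WT and by 26 to 2 and 28 to 0 in damaged. The split was more even in the WT libraries, on few counts. The difference between the loci was not tested. The test of arm use took in Mir30c-1 when WT replicate 1 or either damaged library was left out, and edgeR then gave adjusted p-values of 0.168 to 0.424.

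miR-30e-3p had 0 counts in all 4 libraries. Its position (chromosome 4, 120772618 to 120772639, minus strand) shares 19 bases with miR-30f (120772621 to 120772642, plus strand), an entry annotated on the opposite strand of the Mir30e hairpin, which also had 0 counts in every library. Reads were counted without strand and without the option for reads that overlap several features. Among all 2110 rows, 105 of the 106 that share bases with an opposite entry had 0 counts in all libraries (99.1%), against 1004 of the 2004 other rows (50.1%). Whether the counting set miR-30e-3p and miR-30f to 0 was not tested, and no arm share was computed for miR-30e.

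Outside the family, miR-384-5p has the same seed as the 5p arms of miR-30a, miR-30c and miR-30e.
miR-384-5p: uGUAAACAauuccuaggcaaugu
It had 0 and 6 counts in WT and 7 and 36 in damaged, did not pass the filter on low counts, and thus added at most 4.79 CPM to the seed in any library.

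Other large families were set beside miR-30 by their counts and medians. No row was called by edgeR among 14 rows of let-7 and miR-98 5p arms (median log2 fold change -0.02), 5 tested rows of miR-26 (0.04) and 8 of miR-29 (0.12). Of all tested rows 9.51% were called, so 0 calls in lists this short tells little. The let-7c-5p row of Mirlet7c-2 stood at 44984 and 46760 CPM in WT and 47689 and 45986 in damaged, miR-26a-5p (Mir26a-1) at 4246 and 4360 against 4455 and 4223, and miR-29a-3p, a repressor of collagen genes, at 1675 and 1772 against 2107 and 1621. The next most abundant rows were let-7c-5p (Mirlet7c-1), miR-26a-5p (Mir26a-2) and miR-29b-3p (Mir29b-2). Their log2 fold changes were 0.02, 0.04 and -0.19. Both damaged libraries lay above both WT libraries in 3 of the 14 let-7 rows, 0 of the 5 miR-26 rows and 1 of the 8 miR-29 rows. The same held for 10 of 13 tested rows of muscle-enriched miRNAs and 4 of 19 linked to fibrosis, against 29.1% of all tested rows. They lay below both WT libraries in 4, 0, 1, 1 and 5 rows of these lists, in the same order, against 30.8%. In muscle-enriched miRNAs, 3 of 13 tested rows passed upward and none downward (median 1.12), against 4.1% and 5.41% of all tested rows. The 3 were miR-133b-3p and both copies of miR-133a-3p. The most abundant rows were miR-206-3p (log2 fold change 0.18, edgeR adjusted p = 0.334) and miR-1a-3p (Mir1a-1, 0.28, adjusted p = 0.262). Among miRNAs linked to fibrosis, 3 of 19 tested rows, those of miR-133 again, passed upward and 2, both of miR-199a-3p, downward (median 0.01), with miR-21a-5p at -0.35 (adjusted p = 0.331) and miR-199a-3p (Mir199a-2) at -0.87 (adjusted p = 0.0305) as the most abundant.

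The rows whose profile over the 4 libraries lay nearest to the mean of the miR-30 5p rows were sought among the 153 other rows of at least 100 CPM on average. Likeness was the root mean square distance of log2(CPM + 1) centred on each row's own mean, and 4 libraries leave it coarse. The nearest were miR-23a-3p (distance 0.068), miR-23b-3p (0.076), miR-145a-3p (0.080), miR-191-5p (0.084) and miR-500-3p (0.10). They were picked on these same libraries, so fold changes like those of miR-30 follow from the choice and are no separate result. Of these 5, miR-191-5p alone passed the edgeR test, which called 9.51% of all tested rows. It had 1386 ± 66.3 CPM in the WT libraries against 2242 ± 236 in the damaged ones (SD, n = 2), a log2 difference of 0.69 (edgeR adjusted p = 0.0356). For miR-23a-3p the log2 difference was 0.58 (edgeR adjusted p = 0.0531).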

How the data were processed

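Reads were processed with FastQC, BWA and featureCounts on mm10, per the submitters' processing notes. The deposited table holds raw read counts per mature miRNA entry, made by the authors with featureCounts 2.0.1 without strand, multi-mapping or multi-overlap options, per the file headers. The sources used here do not state the BWA version, the trimming or the release of miRBase. Rows were named by position from RefSeq (1734 rows of 2110), and the rest from GENCODE vM21 hairpins. The main test was edgeR 4.0.16 (R 4.3.3, quasi-likelihood, TMM scaling, Benjamini-Hochberg at 0.05), fitted on group alone after filterByExpr (minimum count 10), and the SE was the log2 fold change over the square root of F. Arm shares were tested by exact permutation over libraries. The test of arm use (diffSpliceDGE) was added after seeing the data. Alternatives were other scalings and filters, DESeq2 1.42.0, limma-voom (limma 3.58.1), robust edgeR, a replicate block, summed copies, a GC correction and each library left out. Scripts were tested on simulated data. All member rows were named, with the rows nearest in profile, of equal seed, and the 2 most abundant of each list, where copies of 1 miRNA count as separate rows. The members and lists were chosen with earlier results of these data known.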

Additional observations from a re-analysis of the deposited data

How the results depend on the processing

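Over 4 libraries the calls in all, higher and lower were 51, 22 and 29 with edgeR, and 131, 63 and 68 with no filter, 91, 40 and 51 with a filter of 10 CPM in 2 libraries or more, 109, 45 and 64 with DESeq2, and 79, 35 and 44 with limma-voom. Upper quartile scaling gave 77 in all and 48 lower, and the GC correction 32 in all and 12 higher. With the replicate number as a block the calls were 127, 56 and 71. Among miR-30 rows 2 were called with no filter and 2 with the replicate block, in both cases miR-30d-5p (adjusted p = 0.00044 with the block) and miR-30e-5p (0.0319 with the block), and 1, miR-30d-5p, with DESeq2, with limma-voom and with the stricter filter. The replicate numbers are not said to mark a shared culture or day, and the correlation of deviations of same-numbered libraries was 0.0032, so the block is a setting only. Leaving out 1 library gave 0 to 30 calls, 0 to 11 higher and 0 to 19 lower, with 0 of the miR-30 rows called by edgeR each time. edgeR made 0 calls when either WT library was left out (an unadjusted p under 0.05 in 103 rows without WT replicate 1 and 124 without the other) or damaged replicate 1 (144). The cause of these shifts was not tested.

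Values of miR-30d-3p, miR-30b-3p and the shares of miR-30a-5p and miR-30c-5p reversed under some settings. miR-30d-3p had log2 fold changes of 0.018 with library totals alone, 0.027 with no filter, 0.0050 with the replicate block and 0.0074 with copies summed, and -0.35 to 0.35 when 1 library was left out. miR-30b-3p went from -0.27 to 3.38, and its log2 ratio of 3p to 5p (damaged minus WT, 0.5 counts added) from -0.40 to 2.60, the lowest in both cases without WT replicate 1. Of the 5p make-up, the difference of miR-30a-5p ranged from -2.69 to 0.0044 percentage points, and that of miR-30c-5p from -1.80 to 0.79. That of miR-30d-5p ranged from 0.31 without damaged replicate 1 to 6.58 without damaged replicate 2. The family's share of all counts differed by 0.100 percentage points, and by 0.184 with miR-206-3p left out of the total, which makes every share larger. The GC correction was not read for miR-30b and miR-30d rows. Depth limits the 3p arms other than miR-30a-3p and miR-30e-3p, at 0 to 112 counts per library.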
